A study of Mus musculus with 16 samples.

Results

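The neutrophil-attracting CXC chemokine genes of the mouse, Cxcl1, Cxcl2, Cxcl3, Cxcl5, Ppbp and Pf4, were followed in epidermal cells of the footpad. They were chosen by name, as the rows of the count table whose Ensembl identifiers map to these symbols, and all 6 were found among 50600 identifiers. Epidermal cells came from female C57/B6J mice placed at 5 wk of age for 3 wk on a purified synthetic diet poor in ligands of the aryl hydrocarbon receptor (AhR-poor diet, labelled SYNTH) or on the same diet with 200 ppm indole-3-carbinol (I3C diet), a plant compound from which AhR ligands form. The footpad received 50 µl of phosphate buffered saline alone (vehicle) or with 50 µg of papain, a plant protease used as an allergen, and cells were taken 6 hr later. There were 4 libraries, 1 per mouse, in each of the 4 groups, I3C diet with vehicle, I3C diet with papain, AhR-poor diet with vehicle and AhR-poor diet with papain. All mice were injected, and none carried a genetic alteration. Mice on the same diet shared cages, so diet and cage cannot be told apart. The epidermis was lifted off with dispase and depleted of dead cells but not sorted, so that cells other than keratinocytes were also lysed.

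CXC chemokines are small secreted proteins that guide leukocytes along gradients. CXCL1, CXCL2, CXCL3, CXCL5 and the processed product of Ppbp (CXCL7) carry a glutamate-leucine-arginine (ELR) motif before their first cysteines, bind the receptor CXCR2 and draw neutrophils out of the blood. In skin, the first 4 of these are typically made by keratinocytes, fibroblasts, macrophages and neutrophils after signals such as interleukin-1 and tumor necrosis factor, whereas Ppbp and Pf4 are best known from the alpha granules of platelets. Pf4 (CXCL4) lacks the ELR motif and is not a CXCR2 ligand, so the name of the group describes it by family rather than by action.

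All 6 genes lie in 1 cluster on the plus strand of chromosome 5 (GRCm38, GENCODE release M21), between positions 90759360 and 90905938. In order they are Cxcl5 (90759360 to 90761624), Ppbp (90768518 to 90770063), Pf4 (90772435 to 90773383), Cxcl3 (90786103 to 90789600), Cxcl1 (90891241 to 90893115) and Cxcl2 (90903871 to 90905938). Cxcl15, another ELR chemokine gene of the same cluster and best known from lung, had 1 count in all 16 libraries together. None of the 6 genes shares an exonic base with another annotated gene. Cxcl2 and Cxcl3, which are close in sequence, share 11 stretches of 100 bases among 1760 in the longest coding transcript of Cxcl2, and the other members share none, so reads could be exchanged only over a small part of those 2 transcripts.

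The promoters are shown because 3 of the members that rose together below carry the same pair of short elements. Each line gives the 120 bases before the RefSeq transcription start on GRCm38.p6, plus strand, 5′ to 3′. Relative to the GENCODE gene starts above, the RefSeq start lies at +28 bases for Cxcl2, +4 for Cxcl1, -2 for Cxcl3 and 0 for Ppbp and Pf4. Positions of elements are counted from the RefSeq start, so that those of Cxcl2 would be nearer to a GENCODE start. Capitals mark GGAATTTCC, a binding sequence of the inflammatory transcription factor NF-kB, and ATAAAAGG, a TATA-type box.
Cxcl1 (chr5:90891125-90891244): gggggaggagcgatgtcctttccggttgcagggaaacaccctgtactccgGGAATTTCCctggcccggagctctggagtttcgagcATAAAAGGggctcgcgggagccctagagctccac
Cxcl2 (chr5:90903779-90903898): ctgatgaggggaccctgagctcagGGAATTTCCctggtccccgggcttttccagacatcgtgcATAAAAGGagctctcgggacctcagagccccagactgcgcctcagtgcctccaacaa
Cxcl3 (chr5:90785981-90786100): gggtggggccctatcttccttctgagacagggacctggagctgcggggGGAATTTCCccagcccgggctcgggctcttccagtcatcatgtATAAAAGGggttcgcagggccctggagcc
Ppbp (chr5:90768398-90768517): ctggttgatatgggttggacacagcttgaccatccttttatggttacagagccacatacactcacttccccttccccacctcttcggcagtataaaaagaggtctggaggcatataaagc
Pf4 (chr5:90772315-90772434): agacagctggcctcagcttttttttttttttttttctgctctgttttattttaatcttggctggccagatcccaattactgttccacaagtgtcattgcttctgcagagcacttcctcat
GGAATTTCC stood once each in the promoters of Cxcl1 (first base at -70 from the start), Cxcl2 (-96) and Cxcl3 (-72), and in neither of the other 2. Searched on both strands in the 250 bases before the start, it was present in 0.286% of 32851 RefSeq promoters. ATAAAAGG followed it in the same 3 promoters (first base at -34, -57 and -29) and lay on the opposite strand in that of Ppbp, against 1.54% of all promoters. GCGTG, the core of the element bound by AhR, was present in the window of Cxcl2 alone, at 2 places upstream of the printed stretch, against 28.2% of promoters. TGANTCA, an AP-1 sequence, was found in that of Ppbp (6.75% of promoters), and AGATAA, bound by transcription factors of megakaryocytes and red cells, in none of the 5 (9.99%). A match is a description of letters and not of binding, and the motifs do not overlap one another. Cxcl5 is named here without a promoter.

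Total counts per library ranged from 22500821 to 51844375. Expression is given as CPM, the count of a gene relative to the library total, scaled by trimmed mean of M-values (TMM) factors, and 3 counts, taken as the floor of detection, correspond to between 0.0569 and 0.13 CPM. The cells expressed keratinocyte markers at summed levels of 42180 to 69200 CPM for 9 genes, Krt5, Krt14, Krt1 and Krt10 among them, in all 16 libraries. Markers of dermal and blood cells were also present and differed by diet. Summed over 10 endothelial genes they reached 1.06 to 4.46 CPM on the I3C diet and 21.1 to 80.7 CPM on the AhR-poor diet. Summed over 6 erythroid genes they reached 0.316 to 17.2 CPM and 73.2 to 1254 CPM. In bulk cells, a larger number of cells of a type and more RNA per cell cannot be told apart. Some libraries stood apart within their group. Among the mice on the AhR-poor diet given papain, library T105 was highest for 5 of the 6 members and T112 was lowest for all 6, and the same 2 libraries were highest and lowest for the neutrophil receptor gene Csf3r (8.99-fold apart) and for Il1b (7.21-fold apart). Among the mice on the I3C diet given papain, T106 held the highest Csf3r (2.29 CPM, others 0.0285 to 0.513 CPM) and the highest Il1b (15 CPM, others 2.01 to 4.68 CPM).

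The levels of the ELR ligands were highest in the mice on the AhR-poor diet given papain. Cxcl1 (KC) was the member with the highest level at rest. With vehicle it stood at 37.2, 45.1, 55.8 and 77.7 CPM on the I3C diet and at 49.2, 54.5, 75.3 and 75.4 CPM on the AhR-poor diet. After papain it stood at 48.7, 53.5, 56.1 and 58.4 CPM on the I3C diet and at 92.5, 138, 146 and 153 CPM when AhR ligands were lacking. The first 3 groups overlapped throughout, with means of 53.9 ± 17.6, 63.6 ± 13.8 and 54.2 ± 4.17 CPM (SD, n = 4 each), and the fourth had a mean of 132 ± 27.2 CPM.

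Cxcl2 (MIP-2) started lower and spread over a wider range. With vehicle it measured 3.76, 5.3, 5.93 and 6.78 CPM on the I3C diet and 12.4, 13.7, 15.2 and 27.2 CPM on the AhR-poor diet. After papain it measured 9.6, 10.1, 11.5 and 15.6 CPM on the I3C diet and 52.6, 148, 168 and 283 CPM on the AhR-poor one. The order of the groups was thus AhR-poor papain, AhR-poor vehicle, I3C papain and I3C vehicle, and only the middle 2 overlapped.

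Cxcl3 and Cxcl5 (LIX) were at or near the floor in 3 of the groups. Cxcl3 had 0, 1, 1 and 3 counts on the I3C diet with vehicle, 2, 2, 5 and 7 counts on the AhR-poor diet with vehicle and 2, 7, 9 and 27 counts on the I3C diet with papain. On the AhR-poor diet with papain it had 194, 417, 762 and 1514 counts, or 5.28, 18.1, 18.8 and 28.7 CPM. The 27 counts on the I3C diet were those of T106, the library with the highest Csf3r of its group. Cxcl5 had 0 to 2 counts in each of the 8 libraries of the vehicle groups. With papain it had 0, 0, 1 and 6 counts on the I3C diet, the 6 again in T106, and 337, 610, 644 and 1605 counts on the AhR-poor diet, or 9.16, 26.4, 15.9 and 30.4 CPM.

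The 2 platelet chemokine genes were the lowest in abundance and differed from each other. Ppbp had no count in the 8 libraries of the I3C diet, 1 count in 1 library on the AhR-poor diet with vehicle, and 4, 7, 13 and 54 counts on the AhR-poor diet with papain. It reached the minimum of 10 counts in total only through that last group. Pf4 had 1, 1, 3 and 5 counts on the I3C diet with vehicle and 0, 0, 1 and 4 counts with papain. On the AhR-poor diet it had 16, 17, 23 and 51 counts with vehicle (0.429, 0.42, 0.609 and 1.39 CPM) and 255 counts over the 4 libraries with papain (0.979, 1.55, 1.92 and 2.38 CPM). Pf4 was therefore set apart by diet already without papain, which was not so for Ppbp.

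**Figure D1:**
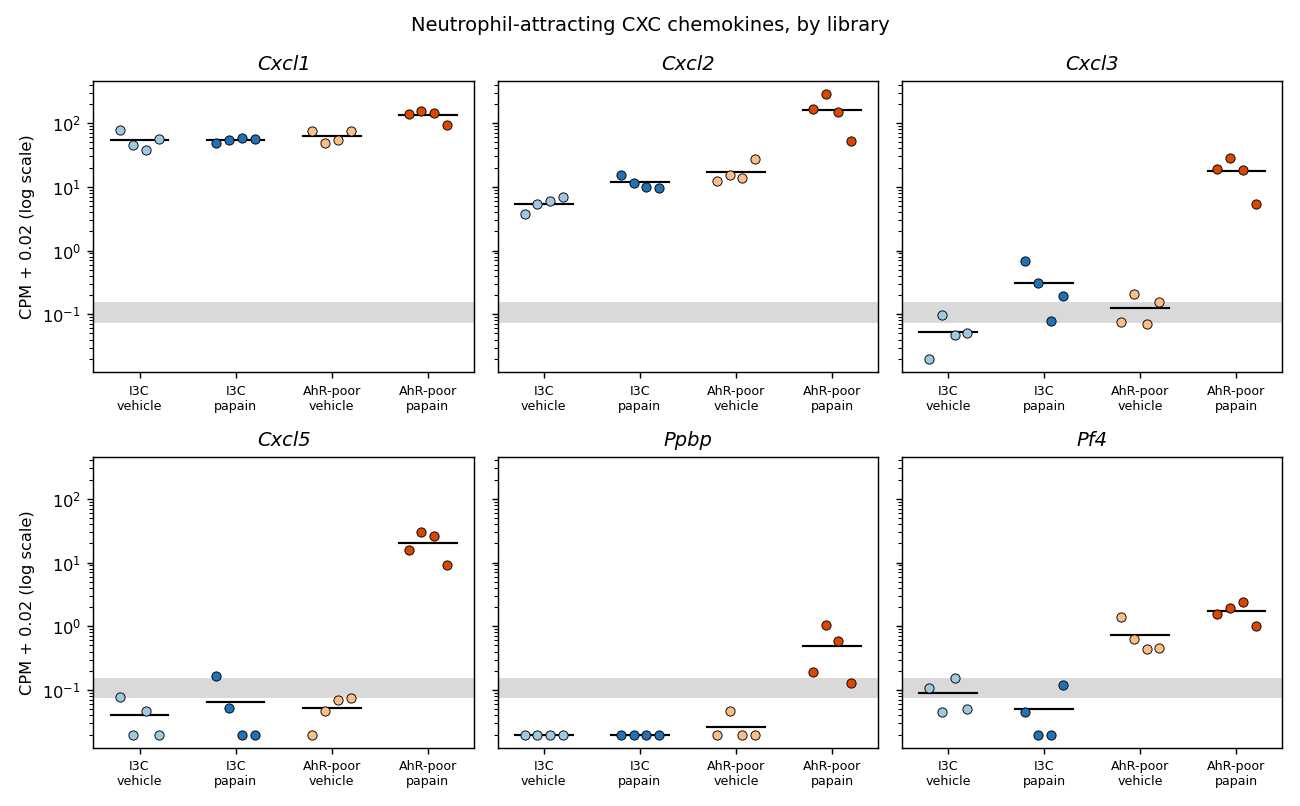
CPM + 0.02 on a log scale for the 6 chemokine genes, 1 point per library and a line at the mean of each group of 4. The grey band spans the CPM of 3 counts across libraries (0.0569 to 0.13, plus the offset), and Cxcl3 and Cxcl5 stand clear of it in all 4 libraries of the AhR-poor diet with papain.

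Levels of different genes were set side by side per kilobase of the longest coding transcript. On that scale Cxcl1 exceeded Cxcl2 in every group, at 56.6 against 2.93 CPM per kb on the I3C diet with vehicle and 139 against 87.7 CPM per kb in the AhR-poor papain group. In the AhR-poor papain group this order depends on the lengths used, 953 bases for Cxcl1 and 1859 for Cxcl2. Without division by length, Cxcl2 had the higher mean there (163 against 132 CPM). The ratio of Cxcl2 to Cxcl1 per kb averaged 0.0573 ± 0.0237 on the I3C diet with vehicle, 0.113 ± 0.0358 on the I3C diet with papain, 0.139 ± 0.0431 on the AhR-poor diet with vehicle and, in mice lacking AhR ligands and given papain, 0.597 ± 0.274 (SD, n = 4 in each group). This ratio does not depend on how libraries are scaled, but its size depends on the lengths used. It was highest in T105 (0.951), where both transcripts were nearly equal per kb, and in T112 it was 0.292, above the 0.185 that was the highest of the other 12 libraries. Next in level on the AhR-poor diet with papain came Cxcl3 at 17.4, Cxcl5 at 13, Pf4 at 2.9 and Ppbp at 0.431 CPM per kb. The ranges of Cxcl3 and Cxcl5 overlapped, and without division by length Cxcl5 had the higher mean (20.5 against 17.7 CPM).

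**Figure D2:**
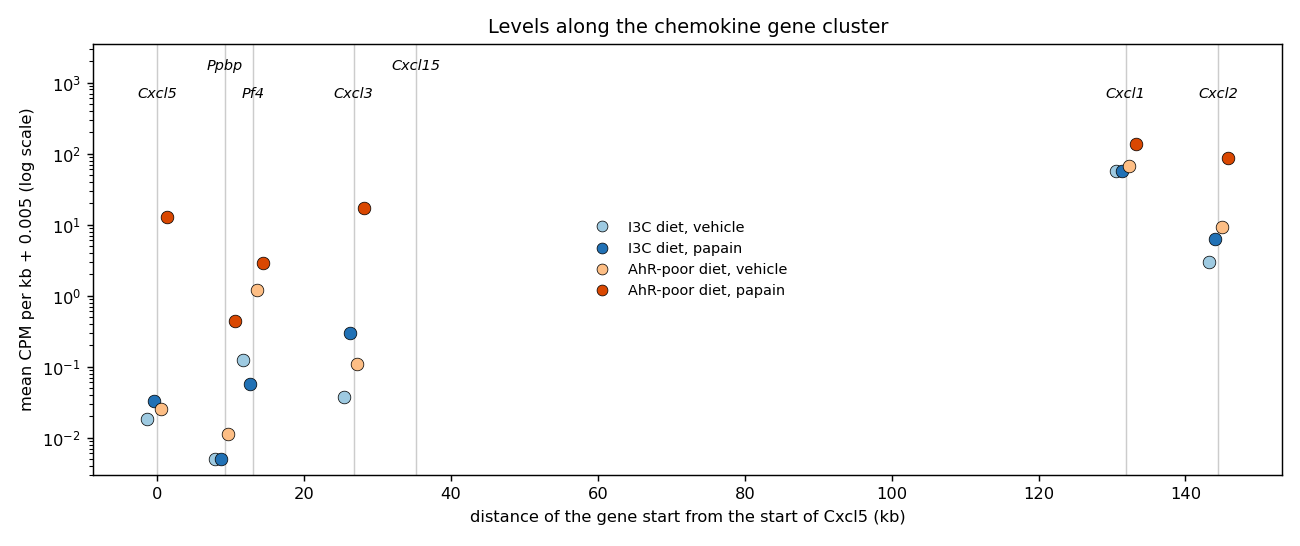
Mean CPM per kb + 0.005 (log scale) of each member in the 4 groups against the distance of its start from that of Cxcl5, in kb, with points of 1 gene spread sideways for legibility and Cxcl15 shown as a line without points. Cxcl1 and Cxcl2, at 131.9 and 144.5 kb, were present in all groups, whereas Cxcl5, Ppbp and Cxcl3, within the first 26.7 kb, were near or at 0 outside the AhR-poor papain group.

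The response to papain was first examined on the AhR-poor diet. Cxcl1, Cxcl2, Cxcl3 and Cxcl5 passed the test and rose, from 2.08-fold for Cxcl1 to a ratio of 635 for Cxcl5, and Pf4 did not pass. Ppbp was also called, but it was tested only because of its counts in this papain group, so its p is no independent support here or between the diets. To be called, a gene needed an adjusted p below 0.01 (Benjamini-Hochberg, over 22155 genes) in edgeR's quasi-likelihood test together with an at least 2-fold change. Of all genes tested, 6.04% were called higher and 2.42% lower in the same comparison. Cxcl1 rose by 1.06 ± 0.21 on the log2 scale (SE, adjusted p = 0.00141), close to the threshold on fold, and Cxcl2 rose by 3.26 ± 0.43 (9.55-fold, adjusted p = 6.29e-05). Cxcl3 rose by 7.35 ± 0.66 (163-fold, adjusted p = 1.13e-06).

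Cxcl5 and Ppbp had at most 2 counts in any vehicle library, and their change is given as a ratio of summed counts per depth, whose exact interval covers counting error only. For Cxcl5 the ratio was 635 (95% interval 272 to 1957, adjusted p = 5.48e-08 in edgeR). For Ppbp it was 77.5 (95% interval 13.5 to 3099, adjusted p = 0.00155), resting on 78 counts of which T105 held 54. Without T105 it was 36.4 (95% interval 5.93 to 1495). Pf4 did not pass the test, at a log2 fold change of 1.25 ± 0.43 (adjusted p = 0.0292), and its groups overlapped through T100, the vehicle library with 51 counts. The exact permutation test of 4 against 4 libraries gave two-sided p = 0.0286, the smallest it allows, for Cxcl1, Cxcl2, Cxcl3, Cxcl5 and Ppbp, and p = 0.0571 for Pf4. The call of Cxcl1 was lost without T105 (0.98, adjusted p = 0.0055) or without vehicle library T101 (0.95, adjusted p = 0.00555), in both because the fold fell under the minimum. That of Ppbp was lost without T101 (adjusted p = 0.0147), and Pf4 passed without T100 (1.80, adjusted p = 0.00313). Without T112, the low library, the log2 fold changes were 1.19 for Cxcl1, 3.55 for Cxcl2 and 7.66 for Cxcl3.

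On the I3C diet no member was called in response to papain, where 3.69% of all genes were called higher and 5.29% lower. Cxcl1 did not move detectably, at a log2 fold change of 0.01 ± 0.21 with a 95% interval of -0.45 to 0.46. Its difference from the response on the AhR-poor diet is tested below as an interaction. Cxcl2 had a log2 fold change of 1.10 ± 0.44 (adjusted p = 0.0687), although all 4 papain libraries lay above all 4 vehicle libraries (exact permutation, two-sided p = 0.0286). It passed in a fit of these 8 libraries alone (adjusted p = 0.00124). The ratio of counts of Cxcl3 was 8.8 (95% interval 3.5 to 28.4, adjusted p = 0.0421), and T106 held 27 of the 45 counts after papain. Without T106 the ratio was 4.88 (95% interval 1.74 to 16.8), and without vehicle library T109 it was 16 (95% interval 4.18 to 136). Cxcl3 passed by DESeq2 (adjusted p = 0.00369, with 4.1% of genes called higher by that tool) and in the fit without T112 (adjusted p = 0.00682). At an unadjusted p below 0.05 there were 2 members, Cxcl2 and Cxcl3, and 9588 genes in all.

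The other 3 members gave little to measure on the I3C diet. The ratio for Cxcl5 was 2.28 (95% interval 0.521 to 13.7) on 7 against 3 counts, and its direction turned without T106, when 1 count was set against 3. Pf4 had a log2 fold change of -0.98 ± 0.96 (adjusted p = 0.475) on 5 against 10 counts. Ppbp had 0 counts in both groups, so no fold can be given.

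The diets were next compared after papain. Of the 6 members, the 5 other than Ppbp passed the test and were higher on the AhR-poor diet, and Ppbp was called with the limit given above, against 7.15% of genes called higher and 0.0993% called lower in that comparison. Cxcl1 was higher by 1.29 ± 0.22 on the log2 scale (2.44-fold, adjusted p = 0.00063) and Cxcl2 by 3.80 ± 0.45 (14-fold, adjusted p = 5.01e-05). Cxcl3 was higher by 5.86 ± 0.58 (58.2-fold, adjusted p = 6.99e-06) and Cxcl5 by 8.66 ± 0.60 (adjusted p = 2.16e-07). Pf4 was higher by 5.52 ± 0.64 (45.9-fold, adjusted p = 8.21e-06). Ppbp, with 0 counts on the I3C diet, was at least 5.67-fold higher against a floor of 3 counts per library (adjusted p = 0.00203). The exact permutation test gave two-sided p = 0.0286 for each of the 6.

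These estimates shared the AhR-poor papain libraries with the comparison above and are not independent of it. Without T106 the log2 difference of Cxcl3 was 6.69, and 1 count of Cxcl5 was left on the I3C diet, for a ratio of 2220 (95% interval 398 to 87720). Without T115, which held 4 of the 5 Pf4 counts on the I3C diet, the ratio for Pf4 was 178.5 (95% interval 31.8 to 7079). Without T112 the differences were 1.43 for Cxcl1 and 4.10 for Cxcl2. The call of Ppbp was lost without T101 (adjusted p = 0.0128) and with the 8 papain libraries fitted alone (adjusted p = 0.0215), and the other 5 members passed in both.

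With vehicle, Pf4 was the only member called between the diets, higher on the AhR-poor diet by 3.29 ± 0.61 on the log2 scale (9.79-fold, adjusted p = 0.00313). In that comparison 1.59% of genes were called higher and 0% lower. The call was lost without I3C library T108, T109 or T111, or without T100, with adjusted p up to 0.0174 and log2 differences from 2.74 to 3.40. Cxcl2 had a log2 difference of 1.65 ± 0.44 (3.14-fold, adjusted p = 0.0673), with all 4 AhR-poor libraries above all 4 I3C libraries (exact permutation, two-sided p = 0.0286). It passed by DESeq2 (adjusted p = 0.00305, with 2.69% of genes called higher by that tool), in a fit of the 8 vehicle libraries (adjusted p = 0.00401) and without T112 (adjusted p = 0.00627). Cxcl1 differed by 0.24 ± 0.21 (95% interval -0.22 to 0.70, adjusted p = 0.748). The ratio for Cxcl3 was 3.03 (95% interval 1.06 to 10.6, adjusted p = 0.733) on 16 against 5 counts, and Cxcl5 and Ppbp were at or under the floor on both diets.

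**Figure D3:**
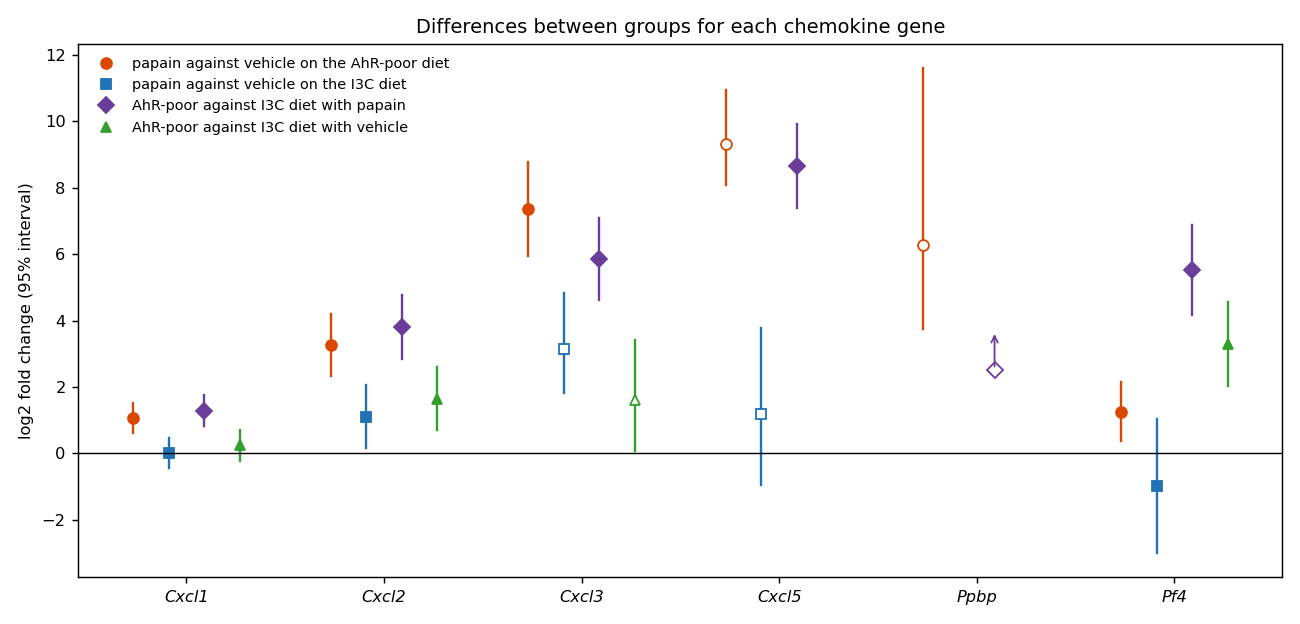
Log2 fold change of each member in the 4 comparisons, with its 95% interval. Filled symbols are fitted in edgeR, open symbols are ratios of counts with an exact counting interval, the arrow marks the lower bound of Ppbp, and comparisons with both groups at or under the floor have no symbol. The AhR-poor papain comparisons lie highest for the ELR ligands, and Pf4 differs by diet under both treatments.

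Whether the papain response itself differed between diets was tested as an interaction. No member passed, and 0.0181% of genes (4) did, a number that reached 95 without T112. The log2 response was larger on the AhR-poor diet by 1.05 ± 0.30 for Cxcl1 (adjusted p = 0.166) and by 2.15 ± 0.60 for Cxcl2 (adjusted p = 0.159). It was larger by 4.35 ± 2.01 for Cxcl3 (adjusted p = 0.363), 8.08 ± 2.62 for Cxcl5 (adjusted p = 0.212) and 2.23 ± 1.07 for Pf4 (adjusted p = 0.374), each resting on groups at or near the floor, where the fitted size depends on the prior count. Leaving out 1 library moved these 3 values to between 3.60 (without T109) and 5.18 (without T106) for Cxcl3, 7.13 (without T108) and 10.08 (without T106) for Cxcl5 and 1.71 (without T110) and 3.79 (without T115) for Pf4, and none passed. For Ppbp the test is void, since 3 groups were at or under the floor. DESeq2 called Cxcl5 (adjusted p = 6.16e-05), where it called 0.903% of genes higher, and 4 members had an unadjusted p below 0.05 in edgeR, where 2987 genes did.

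Of the receptors of these ligands, Cxcr2 and Cxcr1 rose with papain on both diets, whereas Ackr1 was called higher with papain on the AhR-poor diet alone. Cxcr2 encodes the main receptor of the ELR chemokines on neutrophils. It measured 0.517, 0.535, 0.87 and 0.898 CPM on the I3C diet with vehicle and 19.3, 22.9, 25.2 and 29.5 CPM with papain. On the AhR-poor diet it measured 0.599, 0.9, 1.26 and 1.85 CPM with vehicle and 23.6, 30.9, 40.3 and 42.3 CPM with papain. The rise was 5.10 ± 0.30 on the log2 scale on the I3C diet (34.3-fold, adjusted p = 7.16e-09) and 4.89 ± 0.29 on the AhR-poor diet (29.6-fold, adjusted p = 1.28e-08). After papain the diets differed by 0.50 ± 0.23 (95% interval 0.01 to 0.99, adjusted p = 0.143) and the groups overlapped.

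Cxcr1, which encodes the second ELR chemokine receptor, was scarce and moved likewise. It had 1 count in the 8 vehicle libraries, 10, 11, 13 and 16 counts on the I3C diet with papain and 8, 11, 17 and 36 counts on the AhR-poor diet with papain. Both rises passed the test, with a ratio of 48.9 on the I3C diet (95% interval 8.38 to 1968) and at least 5.53-fold on the AhR-poor diet. Ackr1, the atypical receptor by which venular endothelium and erythrocytes bind chemokines without signaling, had 0 to 2 counts on the I3C diet with papain and 61, 74, 160 and 273 counts on the AhR-poor diet with papain. It rose with papain on the AhR-poor diet by 3.04 ± 0.45 on the log2 scale (adjusted p = 4.96e-05) and was not called on the I3C diet (-0.92 ± 1.23, adjusted p = 0.614). After papain Ackr1 was called higher on the AhR-poor diet, as the ELR ligands were. The ratio of counts was 182 (95% interval 62.1 to 886, adjusted p = 1.27e-06 in edgeR). With vehicle Ackr1 had 6, 12, 22 and 24 counts on the AhR-poor diet and 0, 0, 1 and 5 counts on the I3C diet. In CPM the 2 groups did not overlap (exact permutation, two-sided p = 0.0286). The log2 difference between the diets with vehicle was 3.24 ± 0.73 and was not called (adjusted p = 0.0161).

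Cxcr2 is also used as a neutrophil marker, and no other of the 16 neutrophil genes listed was called higher with papain on the I3C diet. Cxcr1, called higher there as given above, was not part of that list. Of 16 neutrophil genes, 14 were tested, and 10 of these rose with papain on the AhR-poor diet (6.04% of all genes did). On the I3C diet Cxcr2 was the 1 that rose (3.69% of all genes did). Il1r2, which encodes a decoy receptor of interleukin-1, was the 1 that fell there (5.29% of all genes did). Ly6g, Trem3 and Camp reached the minimum of 10 counts in total only through the AhR-poor papain group. Their p-values are therefore no independent support in comparisons with that group. The median log2 fold change of the list with papain was 6.13 on the AhR-poor diet and 3.48 on the I3C diet, against -0.00 and -0.04 over all genes, where several markers were at the floor with vehicle, so that the fitted medians depend on the prior count. On the I3C diet Csf3r had 4 counts with vehicle and 116 with papain, 94 of them in T106, and Trem1, chosen after its values were seen, had 3 and 90, neither of them called. Between the diets after papain, 11 of the 14 tested were higher on the AhR-poor diet (7.15% of all genes were). The defining surface marker Ly6g had 278 counts in the AhR-poor papain libraries and 0 in the other 12. Csf3r, the granulocyte colony-stimulating factor receptor gene, averaged 57.8 CPM on the AhR-poor diet and 0.739 CPM on the I3C diet after papain. Summed over the 16 genes, neutrophil markers ranged from 54.6 to 75 CPM with vehicle and 36.9 to 68.7 CPM with papain on the I3C diet, and from 77.7 to 96.9 and from 119 to 578 CPM on the AhR-poor diet. Il1r2 carried most of the sum in the vehicle libraries, with group means of 66.7 and 83 CPM. Without Il1r2 and Cxcr2 the other 14 genes summed to 0.0287 to 0.15 CPM with vehicle and 0.257 to 7.33 CPM with papain on the I3C diet, and to 1.45 to 2.51 and 41 to 362 CPM on the AhR-poor diet. Mpo and Elane, of neutrophil precursors, had 4 and 6 counts in all. The sum over the 14 genes was, like the ELR ligands, highest in the AhR-poor papain group. On the I3C diet with papain, T106 had the highest Csf3r of its group. It also had the highest Cxcl2 (15.6 CPM), Cxcl3 (27 counts) and Cxcl5 (6 counts) there, and the lowest Cxcl1 (48.7 CPM). The part of neutrophils in the ligand levels was not tested.

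**Figure D4:**
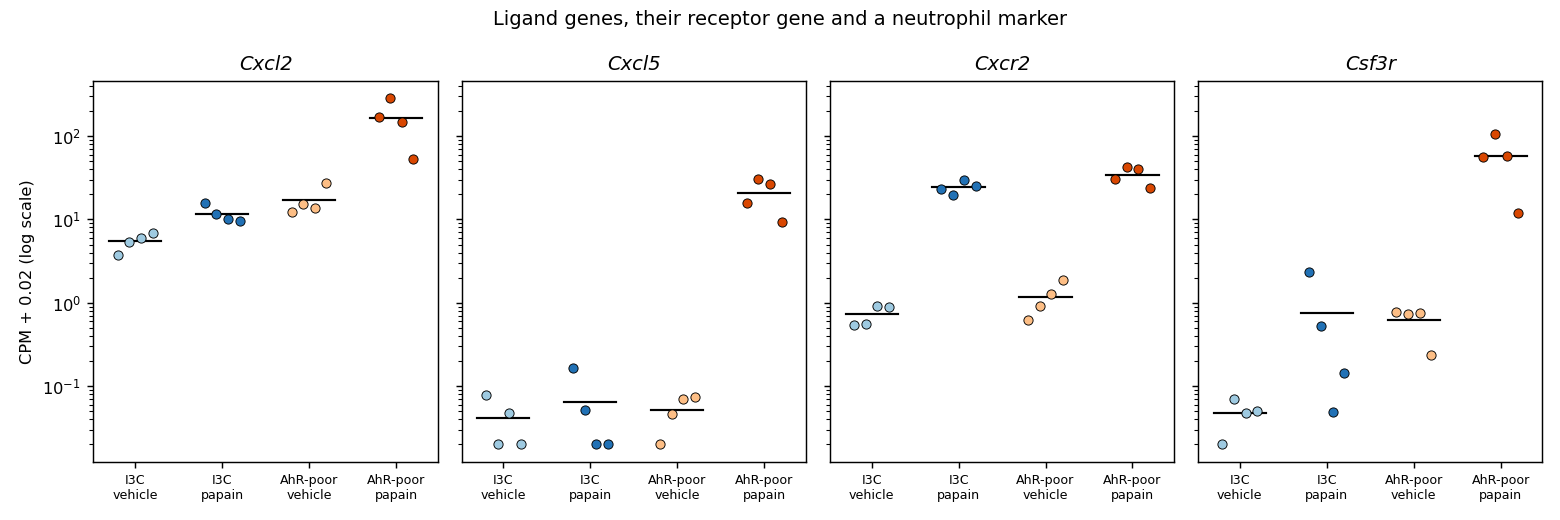
CPM + 0.02 on a log scale for the ligand genes Cxcl2 and Cxcl5, the receptor gene Cxcr2 and the neutrophil marker Csf3r, 1 point per library and a line at the mean of each group of 4. Cxcr2 reached 19.3 to 29.5 CPM on the I3C diet and 23.6 to 42.3 CPM on the AhR-poor diet after papain, whereas Cxcl5 and Csf3r were high on the AhR-poor diet with papain alone.

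Among 12 cytokine genes known to induce these ligands, 6 rose with papain on the AhR-poor diet and 2 on the I3C diet, and none fell in either. Of all genes tested, 6.04% rose and 2.42% fell on the AhR-poor diet, and 3.69% rose and 5.29% fell on the I3C diet. The median log2 fold change over the 12 was 1.36 and 0.03, against -0.00 and -0.04 over all genes tested. Il1b, which encodes the secreted interleukin-1 beta, rose on both, by 6.50 ± 0.74 and 4.04 ± 0.93 on the log2 scale, from means of 2.57 to 233 CPM and of 0.378 to 6.15 CPM. Tnf, the tumor necrosis factor gene, also rose on both, by 1.61 ± 0.28 and 1.25 ± 0.28. Osm, which encodes oncostatin M, rose on the AhR-poor diet by 5.68 ± 0.57, to 16.3 CPM, and was not called on the I3C diet (1.89 ± 0.95). The other 3 that rose on the AhR-poor diet were Il1a, Csf3 and Il1f9 (interleukin-36 gamma), named here because they complete the count. After papain 5 of the 12 were higher on the AhR-poor diet (7.15% of all genes were), and with vehicle none was called (1.59% of all genes were higher). The interleukin-17 genes Il17a, Il17c and Il17f were not called in any comparison, at group means of at most 0.286 CPM.

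A list of 11 genes held members of the NF-kB pathway (subunits such as Rela and Relb as well as feedback regulators) and of chemokine mRNA decay. With papain 1 rose on the AhR-poor diet (6.04% of all genes did). On the I3C diet 1 rose and 1 fell (3.69% and 5.29% of all genes did). Among 11 genes, counts of 1 lie near these shares. Bcl3, a nuclear member of the IkB family, rose on both by 2.18 ± 0.31 and 1.72 ± 0.30 on the log2 scale. Zfp36, whose product tristetraprolin promotes decay of AU-rich mRNAs such as those of these chemokines, fell by 1.07 on the log2 scale on the I3C diet, and its log2 fold change on the AhR-poor diet was -0.53 ± 0.21. Nfkbia, the classic NF-kB feedback inhibitor gene, was not called, at means of 700 to 956 CPM. Neither diet comparison called any of the 11, where 7.15% of all genes were called higher after papain and 1.59% with vehicle.

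CXC chemokine genes without the ELR motif were also counted, although no difference between them and the members was tested. Of 7 tested, 1 rose with papain on the AhR-poor diet (6.04% of all genes did). On the I3C diet none rose (3.69% of all genes did) and 1 fell (5.29% did). After papain 1 was higher on the AhR-poor diet (7.15% of all genes were), at a median log2 difference of 1.18 over the list against 0.01 over all genes. Cxcl12, a chemokine of stromal cells, rose on the AhR-poor diet by 1.18 ± 0.25 on the log2 scale, from a mean of 10.6 to 24.1 CPM, and was higher there than on the I3C diet after papain by 2.33 ± 0.27 (adjusted p = 1.72e-05). Cxcl14, abundant in resting epidermis, fell by 1.75 on the log2 scale on the I3C diet, from 100.5 to 29.8 CPM, and was not called on the AhR-poor diet (-0.49 ± 0.32). Cxcl16, which is made as a membrane-bound chemokine, was not called in any comparison, at group means of up to 141 CPM.

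Platelet markers other than the 2 members did not share 1 level. Of 11 genes, 4 were tested, whereas genes specific to platelets and megakaryocytes, Gp9, Gp1ba, Gp6, Treml1, Clec1b and Tubb1, had between 1 and 6 counts each in all 16 libraries together. The list summed to 15.6 to 26.6 CPM across all libraries, mostly Itga2b and Gp1bb, with 5727 and 5289 counts in all, and its ranges overlapped between all 4 groups. The 2 genes moved in opposite directions within that sum. Over both diets, Itga2b measured 5.22 to 8.945 CPM with vehicle and 9.78 to 17.3 CPM with papain, though it was called in no pairwise comparison. Gp1bb measured 9.53 to 16.7 CPM with vehicle and 3.88 to 8.01 CPM with papain. Itgb3, an integrin gene also used outside platelets, was called in 2 comparisons. It rose with papain on the AhR-poor diet by 1.68 ± 0.30 on the log2 scale. After papain it measured 2.45 to 6.24 CPM on the AhR-poor diet and 0.257 to 0.674 CPM on the I3C diet. The part of platelets in the counts of Pf4 and Ppbp was not tested.

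Many macrophage markers were, like Pf4, higher on the AhR-poor diet. With vehicle, 7 of 13 were called higher there (1.59% of all genes were), and after papain 12 of 13 (7.15%). Cbr2, the gene of the list with the most counts, had 5914 counts on the I3C diet and 5607 on the AhR-poor diet with vehicle. Mrc1, the mannose receptor gene of tissue macrophages, averaged 0.0551 and 0.101 CPM on the I3C diet with vehicle and papain and 1.2 and 10.6 CPM on the AhR-poor diet. Summed over the 13 genes, macrophage markers ranged from 58.7 to 62.1 and from 28.2 to 51.3 CPM on the I3C diet and from 88.7 to 112.4 and from 100.3 to 204 CPM on the AhR-poor diet. T100, the vehicle library with the most Pf4, also had the highest summed macrophage, fibroblast and endothelial markers of its group. In the AhR-poor papain group T107 had the most Pf4 (2.38 CPM), whereas T105 had the highest macrophage sum (204 CPM, against 136.7 CPM in T107). Fibroblast markers were called higher on the AhR-poor diet for 9 of 12 genes under each treatment, endothelial markers for 9 of 10 with vehicle and 10 of 10 with papain, and erythroid markers for 5 of 6 under each. Keratinocyte markers were called in neither diet comparison. The part of these cell types in the level of Pf4 or of the other members was not tested.

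**Figure D5:**
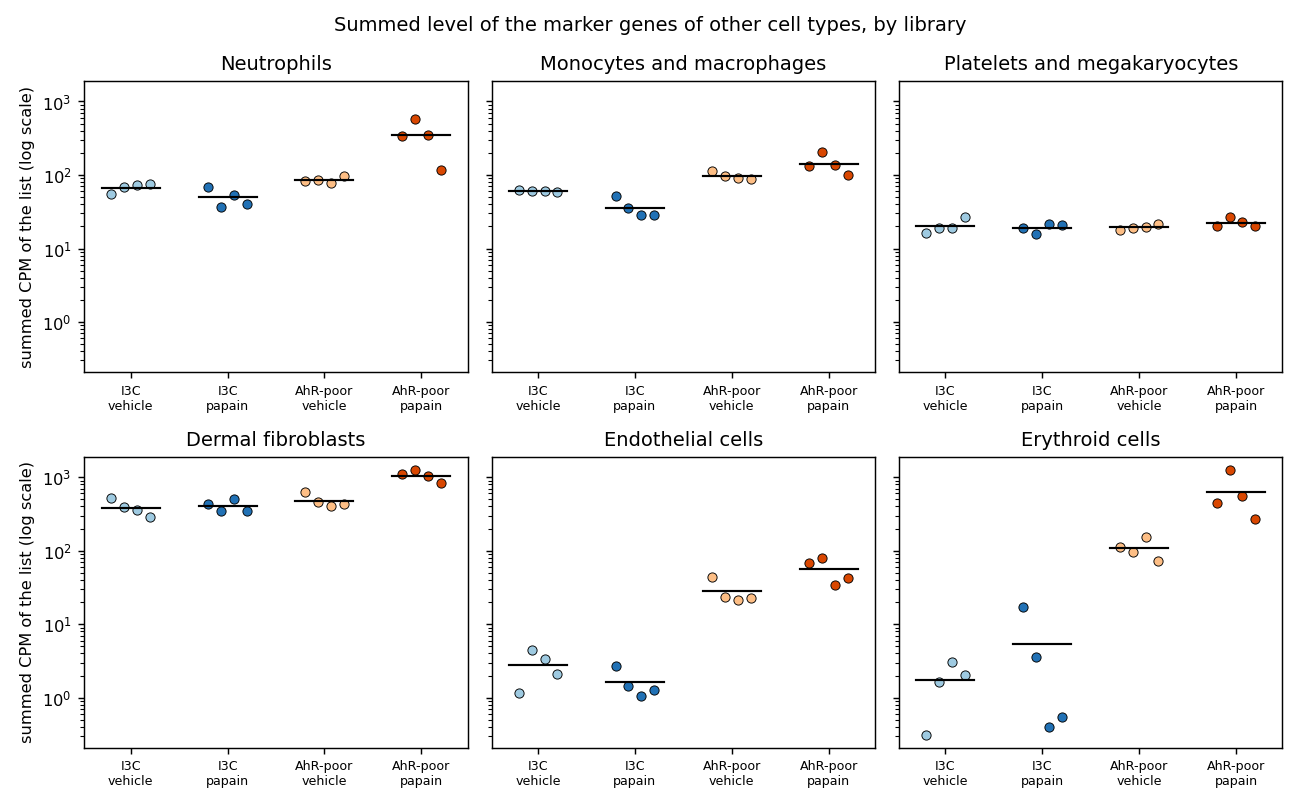
Summed CPM (log scale) of the marker genes of 6 cell types in each library, with a line at the mean of each group of 4. Endothelial and erythroid markers are separated by diet with either treatment, neutrophil markers are highest on the AhR-poor diet with papain (119 to 578 CPM), and the sum of the platelet markers overlaps between all groups.

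Across the 16 libraries, log2(CPM + 0.5) of Cxcl1, Cxcl2, Cxcl3 and Cxcl5 correlated pairwise with Pearson's r between 0.872 and 0.989, the highest being Cxcl3 with Cxcl5. Much of this is the shared difference of 1 group from the other 3, and the values share library and depth. Among 13020 genes with a mean of at least 1 CPM, those most like Cxcl1 were Flnc (r = 0.953), the monocyte chemokine gene Ccl7 (0.944) and the phagocyte gene Cd68 (0.943). Those like Cxcl2 included the leukocyte gene Plek (r = 0.993) and Gpr132 (0.984). Those most like Cxcl3 were Trem1, Hp and Cd300ld, each at 0.995. Those most like Cxcl5 were Il1rl1 (r = 0.994), which encodes the interleukin-33 receptor, and F10 and Cd300ld (0.986 each). Several of these genes are expressed by myeloid cells, Trem1 being also in the neutrophil list. Pf4 and Ppbp averaged under 1 CPM and were not compared.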

How the data were processed

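The members and all gene lists were chosen with earlier results of these data known. The authors prepared TruSeq Stranded mRNA libraries, aligned reads with STAR to mm10 (per the labels and the study's methods) and deposited unnormalized counts of reads per gene for 16 libraries. The counting tool, annotation release and strand setting were not given in the sources used here. Of 50600 identifiers, 50376 matched a symbol in GENCODE release M21 and 0 rows lacked a gene. Groups came from the labels alone. The minimum was 10 counts over all libraries (22155 genes), and 1 mean per group was fitted in edgeR 4.0.16 (R 4.3.3) with TMM factors and the robust quasi-likelihood F test, giving 5 comparisons. P-values were Benjamini-Hochberg adjusted over all genes tested. CPM are computed from these counts with TMM factors. A bound or a ratio of counts replaces the fold where no library of a group exceeded 3 counts. Permutation tests were exact and two-sided on log2(CPM + 0.5). Alternatives were RLE factors, library size alone, other count filters, DESeq2 1.42.0, other thresholds, the 8 libraries compared alone and leaving out each library. Scripts were tested on simulated data. Named were the members, their receptors, the 3 genes of each list called in most comparisons, and the 3 genes most like each member, of which 1 is not reported here, nor is 1 platelet marker. Motif searches and promoters used RefSeq sequences of GRCm38.p6. Intervals and floors cover counting error only. Sequencing units are not in the labels.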

Additional observations from a re-analysis of the deposited data

How the results depend on the processing

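The direction of the members' differences between groups held under the alternatives run, except for Cxcl1 and Cxcl5 with papain on the I3C diet, and these 2 were not called in any of them. Cxcl1 there had a log2 fold change of -0.03 with library size alone, -0.01 with at least 10 counts in every library, and -0.14 to 0.23 when each library was left out (negative without T114, -0.03, T115, -0.01, T109, -0.07, or T110, -0.14). Cxcl5 had -0.93 without T106, on 1 against 3 counts, and up to 2.02 otherwise. Requiring at least 10 counts in every library left only Cxcl1 and Cxcl2 testable, so that 2 members were called with papain on the AhR-poor diet, 2 between the diets with papain and 0 with vehicle. Leaving out 1 library, 3 to 6 members were called with papain on the AhR-poor diet (3 without T101), 0 to 1 on the I3C diet (1 without T112), 5 to 6 between the diets with papain, 0 to 2 with vehicle and 0 in the interaction, with Ppbp counted among the members. With papain on the I3C diet, 1 member was called at an adjusted p below 0.05, 1 by DESeq2 and 1 with the 8 libraries alone. Between the diets with vehicle, 2 were called by DESeq2 and 2 with the 8 libraries alone. In the interaction, DESeq2 called 1. The causes were not tested beyond the smaller number of genes or libraries in those fits. No paired analysis was possible because the library codes are not shared between groups. Depth limits Ppbp, Pf4, Cxcl5 and Cxcl3 on the I3C diet, where 3 counts correspond to at least 0.0731 CPM.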
